A study of Mus musculus with 9 samples.

Results

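The genes described here encode the conjugation enzymes of autophagy, and their transcript levels were compared between sorted mouse LT-HSCs of 3 genotypes. They are Atg12, Atg5, Atg7, Atg10, Atg3, Atg16l1, Atg16l2, Atg4b, Atg4c and Atg4d, chosen by symbol for the function of their proteins and not for their values. The choice was made with earlier results of these data known. All 10 were among the 47643 genes of the count table, and all 10 were among the 18205 genes with enough counts to be tested. In brief, Atg12 was the gene of the 10 whose TKO libraries all lay below every WT and every δKO library, at 0.427 times the WT level. TKO libraries lay below both controls in this way for 1.69% of all genes tested. Whether Atg12 was called depended on the tool and the libraries fitted. edgeR's quasi-likelihood test did not call it, and DESeq2's Wald test called it against both controls when fitted to all 9 libraries and only against WT when fitted to the groups compared. On all 9 libraries DESeq2 called 0.296% of genes lower in TKO against WT and 1.11% in TKO against δKO.

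Autophagy encloses cell material in double-membraned vesicles, and 2 ubiquitin-like conjugation reactions build the vesicle membrane. ATG7, an E1-like enzyme, activates both ATG12 and the ATG8 proteins, of which LC3 is the best known. ATG10, an E2-like enzyme, joins ATG12 to ATG5, and the ATG12-ATG5 conjugate binds ATG16L1 and acts like an E3 ligase. ATG3, the other E2-like enzyme, then transfers LC3 to the lipid phosphatidylethanolamine, while the ATG4 proteases trim new LC3 for this step and remove it from membranes. Loss of Atg12, Atg5 or Atg7 in blood cells is known to disturb the upkeep of HSCs.

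LT-HSCs are long-term hematopoietic stem cells, sorted as donor-derived Lin-cKit+Sca1+Flk2-CD48-CD150+ cells from bone marrow. TKO cells carried Mx1-Cre together with Pik3ca lox/lox, Pik3cb lox/lox and Pik3cd-/- alleles and so lost the class IA PI3K catalytic subunits P110α and P110β on induction and P110δ in the germline. δKO littermate controls had the same PI3K alleles without Mx1-Cre, and WT controls carried Mx1-Cre with wild-type alleles. Donors were C57BL/6 and recipients were lethally irradiated B6.SJL mice. In all 3 groups the recipients received pIpC, which induces the Mx1 promoter that drives Cre in all blood lineages and in some other tissues, as 2 injections of 250 μg given 48 hours apart, and marrow was taken 4 weeks later. δKO shared the loss of Pik3cd with TKO but not the Cre transgene, and WT shared the transgene but not the loss of Pik3cd. Recipients were 6 to 8 weeks old when used for transplantation. The age of the donors is not given uniformly in the sources used here, so none is stated.

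Each genotype had 3 libraries, and the marrow of the 7 recipients in a group was pooled before the sort. The labels call the libraries biological replicates but do not say what separated them after the pool, so p-values measure the spread between these libraries, which may be partly technical. One δKO library carries a number in the count table that no label has and is called the unnumbered δKO library. Totals were 40617691 to 60386097 counts in WT, 31300343 to 54249565 in δKO and 37544783 to 46224594 in TKO. Genes with a count numbered 21616 to 22446 in WT and 19703 to 22703 in TKO, but 18180 in δKO replicate 1, 18500 in the unnumbered δKO library and 22038 in δKO replicate 2. The 9 genes used as an LT-HSC list (Kit, Ly6a, Slamf1, Procr, Hlf, Mecom, Fgd5, Hoxb5 and Tek) were detected in every library, with a sum of 1074 to 1213 CPM in WT, 1034 to 2129 in δKO and 1364 to 1760 in TKO (CPM are edgeR's counts relative to the library total, scaled by TMM factors). Flt3 and Cd48, whose proteins the sort selects against, summed to 50.2 to 133 CPM in WT, 12.9 to 76.3 in δKO and 26.3 to 49.0 in TKO. Libraries stood apart in the markers of other cells. The 10 neutrophil genes summed to 8737 CPM in WT replicate 3 and to 83.7 to 1735 in the others. The 5 myeloid progenitor genes summed to 2641 to 12500 CPM in WT, 180 to 11280 in δKO and 99.3 to 2946 in TKO. The T cell genes summed to 51.5 CPM in δKO replicate 1 and to 0.111 to 17.4 in the others, and the erythroid genes to 109 in WT replicate 2 and 3.06 to 61.2 in the others. Monocyte and macrophage genes summed to 193 to 1149 CPM and B cell genes to 4.68 to 12.0.

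Sequences upstream of 3 of the genes are shown because the E-box CACGTG, the core of the element that the autophagy and lysosome regulator TFEB reads, stood there. The RefSeq table of promoters (GRCm38.p6, 250 bases before to 50 after each start) held 9 promoters for 8 of the 10 genes, and Atg12 and Atg16l1 had none in it. CACGTG, which reads the same on both strands, occurred in 3 of these 9 promoters and in 2349 of all 32851 (7.15%). It began at base -132 from the start for Atg7, at -14 for Atg5, and at -94 and -71 for Atg3. The longer palindrome made of GT, CACGTG and AC was in 0 of the 9 and in 0.326% of all promoters, and the FOXO core GTAAACA, searched on both strands, was in 0 of the 9 and in 3.65% of all. These matches describe letters and are neither binding sites nor causes. The stretches below run 5′ to 3′ on the plus strand, end before the RefSeq start or the first annotated exon base, and have CACGTG in capitals. They are chr6:114670946-114671095 for Atg7, chr10:44268189-44268338 for Atg5 and chr16:45158679-45158784 for Atg3. The Atg7 stretch lies in an intron of the longest annotated extent of that gene.
Atg7: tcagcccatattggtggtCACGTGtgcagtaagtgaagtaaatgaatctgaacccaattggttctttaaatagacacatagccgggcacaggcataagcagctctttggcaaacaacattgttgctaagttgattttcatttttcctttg
Atg5: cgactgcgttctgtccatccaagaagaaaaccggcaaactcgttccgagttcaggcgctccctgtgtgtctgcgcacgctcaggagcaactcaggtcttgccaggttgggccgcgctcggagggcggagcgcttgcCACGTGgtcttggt
Atg3: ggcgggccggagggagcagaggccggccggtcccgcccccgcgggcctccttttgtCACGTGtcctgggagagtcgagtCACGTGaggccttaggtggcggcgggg

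To see how the genes stood in normal LT-HSCs, their levels were ordered per length, as CPM per kilobase of annotated exon, in the WT libraries. Atg3 was highest at 14.6 ± 1.16 (SD, n = 3) and Atg7 was next at 8.46 ± 0.425, and these enzymes differed from each other and from the rest by more than their spread. Atg4c (4.69 ± 1.197), Atg16l2 (4.48 ± 1.17), Atg16l1 (4.03 ± 0.435), Atg4b (3.94 ± 0.212), Atg5 (3.93 ± 0.828), Atg12 (3.21 ± 0.333) and Atg10 (2.70 ± 1.02) followed, and neighbors among them differed by less than the larger of their 2 SDs. Atg4d was lowest at 0.325 ± 0.138. The E2-like enzymes thus stood at opposite ends of the order, with Atg3 for LC3 at its top and Atg10 for ATG12 near its bottom. WT libraries lay close together, since the highest library exceeded the lowest by more than 2-fold for 1 of the 10 genes, against 47.01% of all genes. In δKO and TKO libraries this was so for 7 of the 10 in each, against 76.3% and 57.43% of all genes. In the 43 other autophagy genes examined it was so for 6, 24 and 12.

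**Figure D1:**
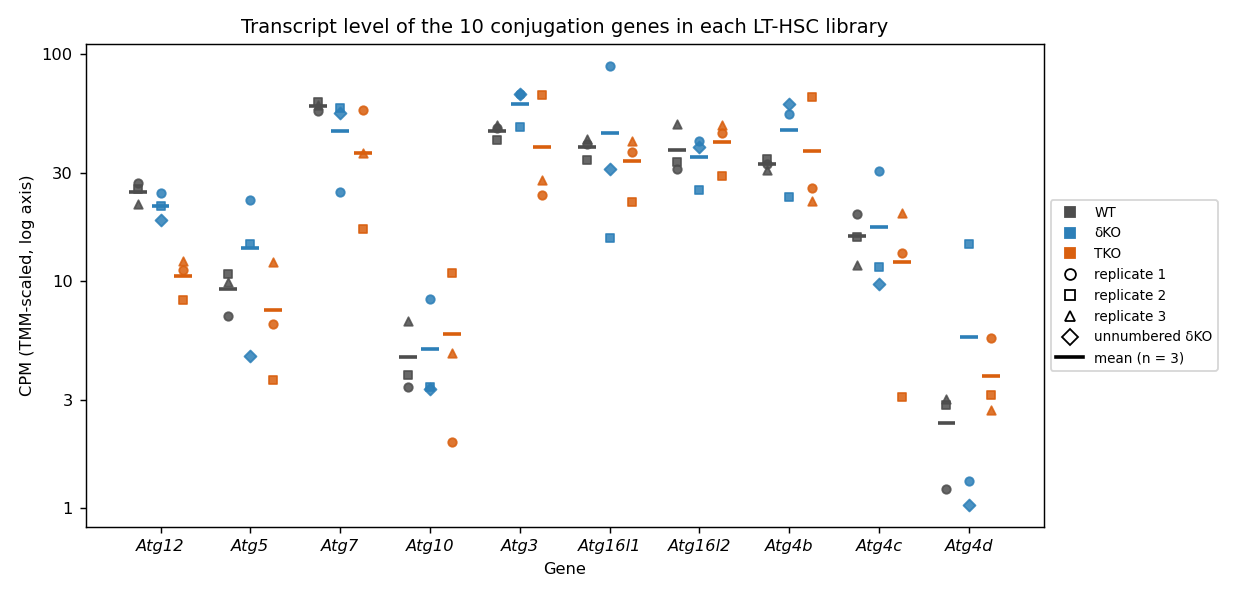
Transcript levels of the 10 genes (CPM, log axis) in each library, with WT in gray, δKO in blue and TKO in orange, the symbol giving the replicate and the bar the mean of 3 libraries. The 3 TKO libraries of Atg12 lie at 8.25 to 12.2 CPM, below all WT and δKO libraries, while the groups of the other 9 genes overlap.

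TKO was first compared with WT, which addresses the loss of all 3 PI3K isoforms. Atg12 (ENSMUSG00000032905.4, chr18:46730144-46741580 of mm10), the ubiquitin-like modifier itself, stood at 26.9, 25.4 and 21.9 CPM in WT replicates 1, 2 and 3. In TKO replicates 1, 2 and 3 it stood at 11.2, 8.25 and 12.2 CPM. The groups did not overlap, and the highest TKO library was far below the lowest WT library. Behind these values were 918 to 1603 counts in WT and 284 to 586 in TKO, so counting error was small beside the spread between libraries. The log2 fold change was −1.23 (SE 0.400, 95% interval −2.10 to −0.35), or 2.34-fold lower in TKO. edgeR's quasi-likelihood test gave it an unadjusted p of 0.0101 and an adjusted p of 1.00, and by p it ranked 159 among the 18205 genes. DESeq2 on all 9 libraries gave nearly the same change, −1.22, with an adjusted p of 0.00372. Over 20 alternatives the log2 fold change ranged from −1.34 to −1.08 and the adjusted p from 0.00234 to 1.00. All TKO libraries also lay above all WT libraries in the LT-HSC marker sum and below them in the sum of Flt3 and Cd48. The latter gap was narrow, at 49.0 CPM in TKO replicate 3 against 50.2 in WT replicate 2. Flt3 alone overlapped, at 12.35 to 39.3 CPM in TKO and 26.99 to 115 in WT, while Cd48 did not. Of the LT-HSC list, Ly6a, Procr and Hoxb5 overlapped and the other genes did not. The part of these markers in the change of Atg12 was not tested. In bulk RNA, fewer cells with the transcript and less transcript per cell cannot be told apart.

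A gene was called when its adjusted p was under 0.05 and its change exceeded 2-fold. In TKO against WT, edgeR called 0 of the 10 genes, and it called 0.00549% of all genes tested. By unadjusted p under 0.05, 1 gene (Atg12) was lower and 0 were higher, where 2.5% of all genes were lower and 1.68% higher by the same rule. The libraries of 1 gene (Atg12) did not overlap with TKO lower, and of 0 genes with TKO higher, where this held for 7.47% and 6.88% of all genes. DESeq2 called 1 gene (Atg12), where it called 0.296% of genes lower. The log2 fold change was above 0 for 4 genes and below 0 for 6, with a median of −0.22, where 48.8% of all genes were below 0 and the median of all was 0.017. With 3 libraries a group and the spread seen here, the intervals of the other 9 genes included 0 and were wide.

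Among the activating and transferring enzymes, Atg7 and Atg3 were high in some TKO libraries and low in others. Atg7 (ENSMUSG00000030314.16, chr6:114643097-114860614), the E1-like enzyme, was at 55.8, 61.7 and 59.3 CPM in WT and at 56.6, 16.9 and 36.5 in TKO. TKO replicate 1 was thus at the WT level, TKO replicate 2 was far below it, and the log2 fold change was −0.68 (SE 0.446, interval −1.66 to 0.29, unadjusted p = 0.152 and adjusted p = 1.00 by edgeR). Atg3 (ENSMUSG00000022663.3, chr16:45158785-45188538) was at 47.3, 41.8 and 48.7 CPM in WT and at 23.9, 65.6 and 27.8 in TKO. Here TKO replicates 1 and 3 were below every WT library and TKO replicate 2 was above every one. The change was −0.23 (interval −1.08 to 0.61), and without TKO replicate 1 it was 0.020. Atg10 (ENSMUSG00000021619.5, chr13:90935356-91223968), the E2-like enzyme that serves ATG12, was low throughout, at 3.43, 3.85 and 6.64 CPM in WT and 1.95, 10.8 and 4.81 in TKO. Its TKO libraries held both the highest and the lowest of all 9 values, with a change of 0.34 (interval −1.46 to 2.13) that went to −0.46 without TKO replicate 2.

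The partners of ATG12 did not share its separation between groups. Atg5 (ENSMUSG00000038160.6, chr10:44268358-44364291), to which ATG12 is joined, was at 7.04, 10.8 and 9.91 CPM in WT and 6.48, 3.66 and 12.1 in TKO. One TKO library was above all WT libraries and the other two were below them, for a change of −0.31 (interval −1.81 to 1.18). Without TKO replicate 2 the change of Atg5 was 0.0080. Atg16l1 (ENSMUSG00000026289.15, chr1:87755870-87792428), the scaffold that places the conjugate on the membrane, was at 40.2, 34.1 and 42.1 CPM in WT and 37.1, 22.4 and 41.3 in TKO. The groups overlapped, with a change of −0.21 (interval −1.37 to 0.96) that was 0.012 without TKO replicate 2. Its paralog Atg16l2 (ENSMUSG00000047767.17, chr7:101263034-101302251) was at 31.02, 33.5 and 49.3 CPM in WT and 44.8, 29.1 and 48.8 in TKO. This gene had the narrowest interval of the 10, −0.66 to 0.88 around 0.11, with values of −0.019 without WT replicate 1 and −0.034 without TKO replicate 3.

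The ATG4 proteases varied without a common direction. Atg4b (ENSMUSG00000026280.17, chr1:93751500-93790610), the protease with the broadest activity on ATG8 proteins, was at 32.7, 34.4 and 30.9 CPM in WT and 25.7, 64.5 and 22.4 in TKO. As with Atg3, TKO replicate 2 was above and the other TKO libraries were below all of WT, and the change of 0.20 (interval −0.82 to 1.22) became −0.44 without TKO replicate 2. Atg4c (ENSMUSG00000028550.15, chr4:99193934-99259787) was at 19.8, 15.7 and 11.7 CPM in WT and 13.2, 3.08 and 19.9 in TKO. Its change was −0.38 (interval −1.88 to 1.12), and 0.073 without TKO replicate 2, the library that was lowest of all 9. Atg4d (ENSMUSG00000002820.5, chr9:21265293-21277772) was at 1.21, 2.84 and 3.03 CPM in WT and 5.62, 3.14 and 2.71 in TKO, a change of 0.70 (interval −1.62 to 3.01). The values of Atg4d are uncertain because 19.3% of its exon bases overlap Kri1 on the opposite strand and the strand setting of the counting is not given in the sources used here. For the other 9 genes, at most 2.01% of their 50-base stretches occurred in transcripts of another gene.

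**Figure D2:**
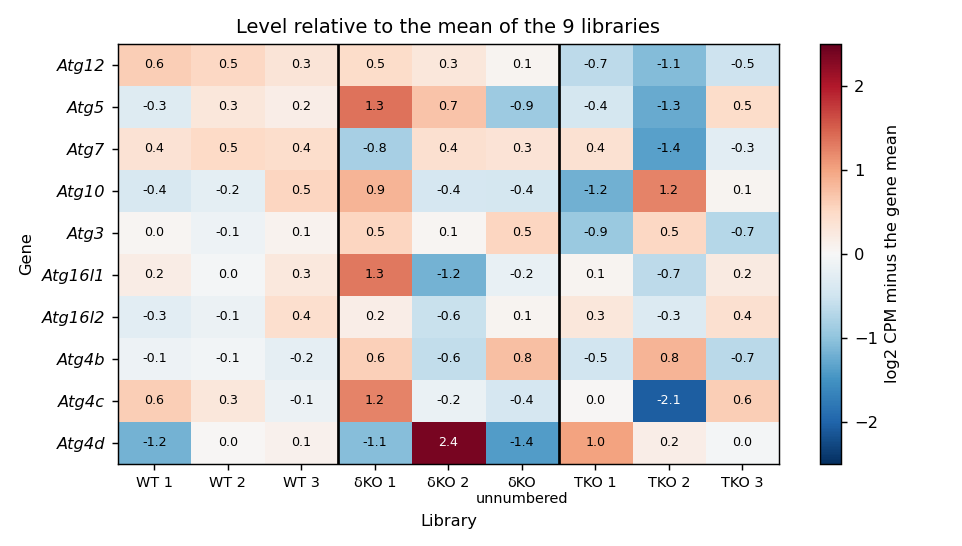
Level of each gene in each library as log2 CPM minus the mean of that gene over the 9 libraries, with red above and blue below the mean. Atg12 is below its mean in all 3 TKO libraries and above it in all 6 others, whereas rows of other genes change sign within a genotype.

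TKO was then compared with δKO, which addresses the loss of P110α and P110β on top of P110δ. TKO also carried the Cre transgene that δKO lacked, and its part cannot be told apart from that loss. The TKO libraries are the same as above, so this comparison is not independent of that with WT. Atg12 was at 24.3 CPM in δKO replicate 1, 21.5 in replicate 2 and 18.5 in the unnumbered library. Every δKO library was above every TKO library here, at 503 to 1205 counts. The log2 fold change was −1.02 (SE 0.399, interval −1.89 to −0.15), or 2.03-fold lower in TKO, with an unadjusted p of 0.0255 and an adjusted p of 0.465 by edgeR. DESeq2 on all 9 libraries gave −1.03 with an adjusted p of 0.0102, and over the alternatives the adjusted p ranged from 0.0102 to 0.946. On the groups compared alone DESeq2 gave an adjusted p of 0.138. The other 9 genes overlapped between TKO and δKO.

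In TKO against δKO, edgeR called 0 of the 10 genes and 0% of all genes. By unadjusted p under 0.05, 1 gene (Atg12) was lower and 0 were higher, where 5.56% of all genes were lower and 4.6% higher. The groups of 1 gene (Atg12) did not overlap with TKO lower, and of 0 genes with TKO higher, where this held for 4.74% and 6.98% of all genes. DESeq2 called 1 gene (Atg12), where it called 1.11% of genes lower. The log2 fold change was below 0 for 8 genes and above 0 for 2 (Atg10 and Atg16l2), with a median of −0.47, where 52.8% of all genes were below 0 and the median of all was −0.055.

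Several of these values rested on δKO replicate 1, in which 4 of the 10 genes had the highest level of the 9 libraries. The share of all genes with their highest level in that library was not computed. TKO replicate 2 held the lowest level of 4 of the 10 genes and the highest of 2. Atg5 was at 22.6, 14.6 and 4.68 CPM in δKO replicates 1 and 2 and the unnumbered library, against 3.66 to 12.1 in TKO, a change of −0.91 (interval −2.42 to 0.60) that was −0.38 without δKO replicate 1. Atg16l1 was at 88.6, 15.4 and 31.1 CPM in the same order, a change of −0.42 (interval −1.59 to 0.75) that turned to 0.53 without δKO replicate 1. Atg4c was at 30.4, 11.6 and 9.69 CPM, and its change of −0.51 (interval −2.01 to 0.99) turned to 0.18 without that library. δKO replicate 1 was thus far above both other δKO libraries for Atg16l1 and Atg4c, while for Atg5 the unnumbered library was the one farthest from the others. It also had the fewest genes detected, the highest LT-HSC marker sum (2129 CPM) and the lowest myeloid progenitor sum of δKO (180 CPM). With genes detected as a covariate the changes were −1.38 for Atg5, 0.32 for Atg16l1 and −0.70 for Atg4c, and the part of the markers was not tested. Atg3, at 66.9, 47.5 and 66.7 CPM in δKO, was above 2 of the 3 TKO libraries in every δKO library, with a change of −0.63 (interval −1.48 to 0.22).

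The remaining genes were compared in the same way. Atg7 was at 24.6, 57.8 and 55.0 CPM in δKO, so that here δKO replicate 1 was the low library, and its change was −0.32 (interval −1.29 to 0.65), or 0.020 without TKO replicate 2. Atg4b was at 54.5, 23.3 and 60.4 CPM in δKO, with a change of −0.30 (interval −1.32 to 0.73). Atg10 was at 8.30, 3.40 and 3.35 CPM, with a change of 0.22 (interval −1.57 to 2.02) that was −0.57 without TKO replicate 2. Atg16l2 was at 41.3, 25.2 and 38.7 CPM, for 0.22 (interval −0.55 to 1.00). Atg4d was at 1.32, 14.6 and 1.03 CPM, so δKO replicate 2 was far above both other δKO libraries. Its change of −0.57 (interval −2.88 to 1.74) was 1.70 without δKO replicate 2.

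**Figure D3:**
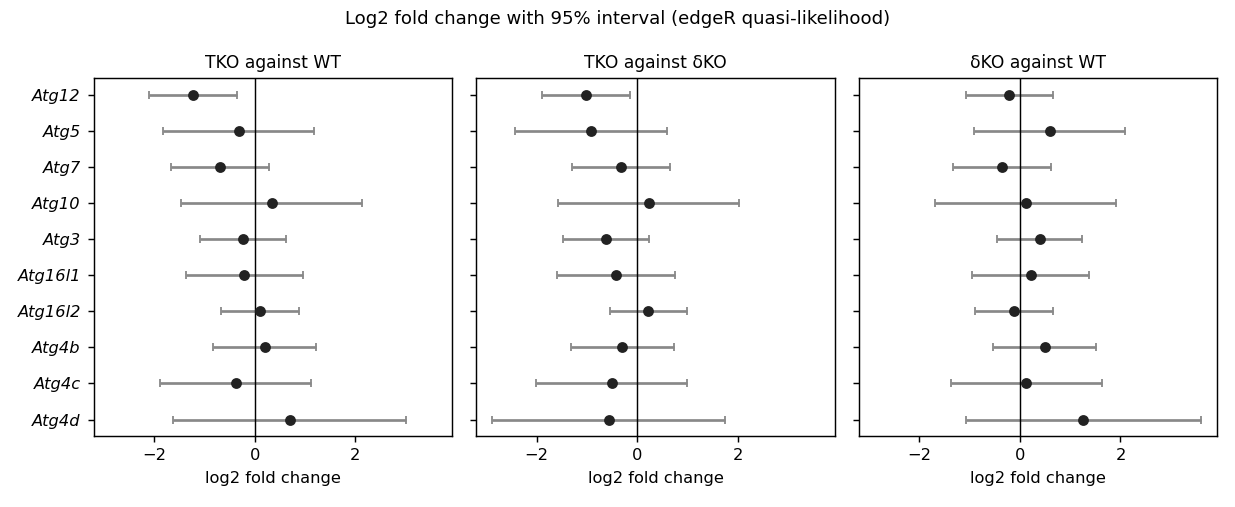
Log2 fold change of each gene from edgeR's quasi-likelihood fit (points) with its 95% interval (bars) for the 3 pairs of genotypes. The intervals of Atg12 lie below 0 in both comparisons with TKO, and all other intervals include 0.

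δKO was compared with WT to see the loss of P110δ alone, and with it the absence of the Cre transgene, which cannot be told apart from it. Atg12 was nearly level, at 18.5 to 24.3 CPM in δKO and 21.9 to 26.9 in WT, with a log2 fold change of −0.21 (SE 0.394, interval −1.07 to 0.66, unadjusted p = 0.609 by edgeR). That interval covers δKO levels from 0.48 to 1.58 times those of WT, so it does not show that the levels were equal. In δKO against WT, edgeR called 0 of the 10 genes (0.00549% of all genes), 0 had an unadjusted p under 0.05 (7.01% of all genes), 0 did not overlap (11.5% of all genes) and DESeq2 on all 9 libraries called 0 of 9 (1.03% of genes). In the fit to all 9 libraries DESeq2 gave Atg4d no p in any of the 3 comparisons. The log2 fold change was above 0 for 7 genes and below 0 for Atg12, Atg7 and Atg16l2, where 47.2% of all genes were below 0. The median was 0.17, and that of all genes was 0.046. With upper-quartile scaling, which moved the median of all genes by −0.15, Atg10, Atg16l1 and Atg4c were below 0 as well.

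The values of the other genes in δKO against WT were Atg5 0.60 (interval −0.91 to 2.10), Atg7 −0.36 (interval −1.34 to 0.61), Atg3 0.39 (interval −0.45 to 1.24) and Atg4b 0.50 (interval −0.53 to 1.52). Without δKO replicate 1 Atg5 was 0.064 and Atg7 −0.062, and without the unnumbered δKO library Atg5 was 1.01. Without δKO replicate 2 Atg7 was −0.56 and Atg4b 0.82, and Atg4b was 0.25 without the unnumbered library. Atg3 and Atg4b each had 2 of 3 δKO libraries above all of WT. Atg10 (0.11), Atg16l1 (0.21) and Atg4c (0.13) turned to −0.46, −0.74 and −0.56 without δKO replicate 1. Atg10 was also −0.066 without WT replicate 1 and −0.0078 without WT replicate 2, and Atg4c was −0.041 without WT replicate 3. Atg16l2 (−0.11) turned to 0.12 without WT replicate 3 and 0.084 without δKO replicate 2. Atg4d had the highest value, 1.26 (interval −1.08 to 3.60), which came from δKO replicate 2 and was −1.0 without it.

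Taking both controls together, all 3 TKO libraries lay below all 6 WT and δKO libraries for 1 of the 10 genes, Atg12, and for 307 of all genes tested (1.69%). They lay above all others for 0 of the 10 and for 2.12% of all genes. Among the 43 other autophagy genes, 0 met either condition. The highest Atg12 library exceeded the lowest by 1.23-fold within WT, 1.31-fold within δKO and 1.48-fold within TKO. With WT replicate 3 and δKO replicate 1 both left out, a setting chosen after the data were seen, edgeR again called 0 of the 10 genes in each comparison.

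Ratios of members within a library need no scaling between libraries, and 5 were compared between the genotypes by two-sided exact permutation tests over libraries. With 3 libraries against 3 such an exact test cannot go below p = 0.1, and 15 comparisons were adjusted together. The ratios are of counts, not corrected for length, and serve to compare genotypes only. There were 3.83, 2.36 and 2.21 Atg12 counts per Atg5 count in WT replicates 1, 2 and 3 and 1.73, 2.25 and 1.01 in TKO. The TKO values were lower than WT with one overlap, a log2 difference of −0.78 (exact permutation p = 0.2, adjusted p = 0.833). With single libraries left out it ranged from −1.04 (without TKO replicate 2) to −0.46 (without TKO replicate 3). In δKO the same ratio was 1.08, 1.47 and 3.96, which spanned the values of both other groups. Atg12 counts per Atg7 count had geometric means of 0.419, 0.498 and 0.319 in WT, δKO and TKO libraries, and Atg3 counts per Atg10 count had 10.3, 13.1 and 7.54. Exact permutation p-values for these 2 ratios were 0.2 or more.

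The scaffold paralogs gave the one ratio that separated TKO from WT. Atg16l2 counts per Atg16l1 count were 1.21, 1.30 and 1.18 in TKO and 0.771, 0.981 and 1.17 in WT, a log2 difference of 0.36 (exact permutation p = 0.1, the smallest possible, adjusted p = 0.833). With single libraries left out it ranged from 0.20 (without WT replicate 1) to 0.50 (without WT replicate 3). The gap between the closest libraries of the groups was small, and in δKO the ratio ran from 0.466 to 1.63, wider than both. Per length, the share of Atg16l2 in the pair was 58.3 ± 1.23% in TKO, 52.2 ± 5.19% in WT and 52.7 ± 15.99% in δKO (SD, n = 3). Within the ATG4 family, counted per length and with Atg4a included, WT libraries held 38.8% Atg4c, 32.7% Atg4b, 25.8% Atg4a and 2.71% Atg4d. The counts of Atg4d per Atg4b count had geometric means of 0.067, 0.064 and 0.109 in WT, δKO and TKO, with exact permutation p-values of 0.4 or more.

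The substrates of these enzymes are the ATG8 proteins. Map1lc3b, which encodes LC3B, was at 133 ± 17.4 CPM in TKO, 106 ± 15.7 in WT and 112 ± 21.02 in δKO (SD, n = 3). Its log2 fold change was 0.33 against WT (SE 0.243). Gabarapl1, at 102, 85.8 and 102 CPM in WT and 155, 115 and 153 in TKO, was higher in every TKO than in every WT library. Its change was 0.55 (SE 0.241), with an unadjusted p of 0.0426 and an adjusted p of 1.00 by edgeR. In δKO it was also above every WT library, at 0.39 (SE 0.241) against WT. TKO and δKO overlapped for Gabarapl1, with a change of 0.16 (SE 0.240, unadjusted p = 0.512 by edgeR). Gabarapl2 also did not overlap between TKO and WT, at 13.0, 15.7 and 17.4 CPM in WT and 18.5, 35.6 and 18.6 in TKO, with a value of 0.66 (SE 0.675). Gabarap was at −0.14 (SE 0.373) and Map1lc3a at −0.15 (SE 0.974) in TKO against WT, and none of these 3 genes had an unadjusted p under 0.05. The median of the 5 values was 0.33 against WT, where that of all genes was 0.017. Against δKO it was 0.24, where that of all genes was −0.055. In δKO against WT it was −0.077, where that of all genes was 0.046. All 5 genes were above 0 in TKO against δKO, where 52.8% of all genes were below 0. None of the 5 was called by edgeR or DESeq2 in any of the 3 comparisons.

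Further conjugation factors stood outside the 10 genes. Atg4a, the fourth ATG4 protease, was at 7.58 ± 3.31 CPM in TKO, 8.33 ± 3.08 in WT and 5.97 ± 2.62 in δKO, with changes of −0.14 (SE 0.682) against WT and 0.34 (SE 0.683) against δKO. Tecpr1, which binds the ATG12-ATG5 conjugate in place of ATG16L1 and was named after its values were seen, was at 17.1 ± 6.29, 15.8 ± 2.01 and 7.46 ± 4.62 CPM in the same order. Its TKO libraries all lay above its δKO libraries, with a change of 1.19 (SE 0.559, unadjusted p = 0.0555 and adjusted p = 0.490 by edgeR).

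Beside the 10 conjugation genes, the 43 other genes of the pathway were spread around 0. In TKO against WT 28 were above and 15 below 0 (median 0.11), in TKO against δKO 25 and 18 (median 0.056), and in δKO against WT 24 and 19 (median 0.053). edgeR called 0 of the 43 in each comparison, and by unadjusted p under 0.05 there were 1 higher, 1 lower and 0, where 1.68% of all genes were higher, 5.56% lower and 7.01% either in these comparisons. The first was Gabarapl1. The second was Bnip3, a mitophagy receptor, at −1.83 in TKO against δKO (SE 0.762, unadjusted p = 0.0343 by edgeR), with 57.0 CPM in δKO replicate 1 and 7.08 and 7.98 in the other δKO libraries against 6.16 to 7.10 in TKO. DESeq2 on all 9 libraries called 0 of the 41 that it gave a p in each comparison, and gave none to Bnip3 and Atg14. In TKO against WT the groups did not overlap for 2 of the 43 with TKO higher, Gabarapl1 and Gabarapl2, and for 3 with TKO lower, Atg101, Bnip3 and Ykt6 (6.88% and 7.47% of all genes). In TKO against δKO this held for 1 with TKO higher, Tecpr1 (6.98% of all genes). In δKO against WT it held for 3 genes, Gabarapl1 with δKO higher and Atg101 and Tecpr1 with δKO lower (11.5% of all genes in either direction). These shares of the 43 were near or below those of all genes. Atg101, Atg14 and Ykt6 were named after their values were seen. By step, medians in TKO against WT ran from −0.092 for the 9 cargo receptors to 0.33 for the ATG8 substrates.

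**Figure D4:**
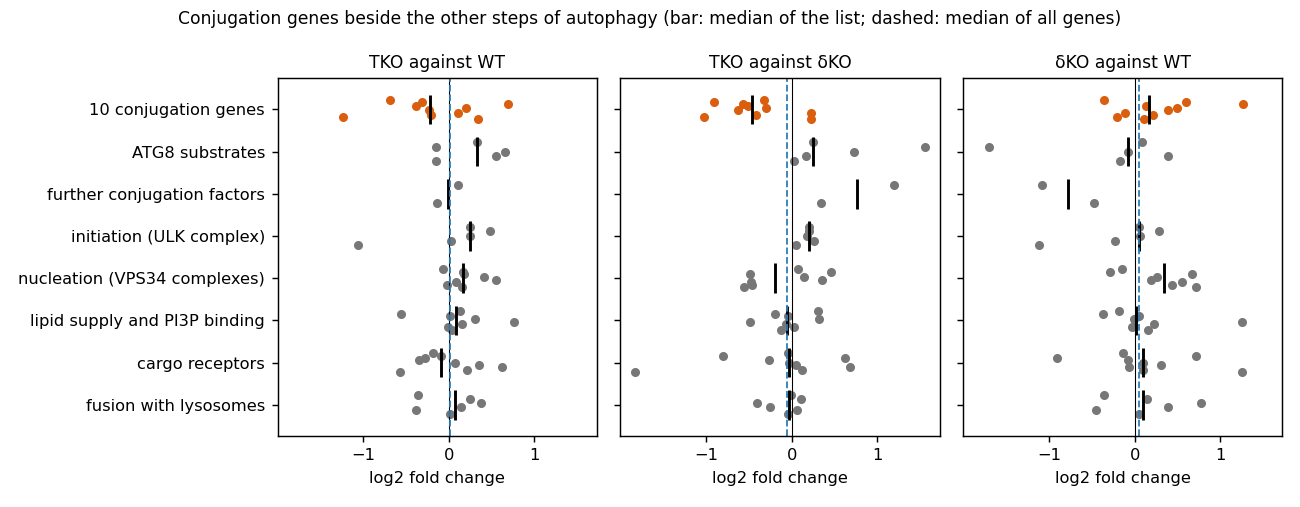
Log2 fold changes of the 10 conjugation genes (orange) and of the other autophagy genes by step (gray) in the 3 comparisons, with the black bar at the median of each list and the dashed line at the median of all genes tested. The medians of the 10 genes are −0.22, −0.47 and 0.17, and Atg12 is the leftmost orange point in both comparisons with TKO.

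By the shape of its profile over the 9 libraries, Atg12 was compared with the 10774 tested genes of at least 5 CPM on average. The measure was the root mean square difference of log2 CPM, each gene centered on its own mean. Nearest were Trim11 (0.222), which encodes a tripartite motif protein, Ppp2cb (0.241), a catalytic subunit of protein phosphatase 2A, Mrs2 (0.245), a mitochondrial magnesium channel, Fam83d (0.253), a mitotic spindle protein, and Rasgrp2 (0.255), an exchange factor for Rap1. Trim11, for instance, had a mean of 11.1 CPM in TKO libraries, against 27.1 in WT and 21.6 in δKO. These 5 genes were picked as the nearest, so their likeness to Atg12, and the greater distance of any other gene, followed from the choice. Of the other 9 conjugation genes the nearest to Atg12 was Atg7 at 0.58 and the farthest was Atg4d at 1.37. The share of all genes as near to Atg12 as these was not computed. The closest profiles among the 10 were those of Atg3 and Atg4b (0.324), which were both high in TKO replicate 2, δKO replicate 1 and the unnumbered δKO library, followed by Atg16l1 and Atg16l2 (0.497).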

How the data were processed

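Per the labels, cDNA was amplified from total RNA of sorted cells with the Ovation RNA-Seq System V2, and the submitters' processing notes name bcl2fastq, Trim Galore 0.3.7, FastQC 0.11.4, STAR 2.5.1b, DESeq2 and mm10. The authors deposited raw counts per gene, whole numbers without normalization, and a normalized signal equal to the count divided by a size factor. The annotation, the strand setting and the way technical runs were joined are not given in the sources used here. Of the identifiers, 47224 were found in an mm10 annotation without version and 39106 with it.

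Columns were mapped to genotypes by name. Genes were kept with edgeR's filterByExpr function (count minimum 10), and counts were scaled with TMM factors. The quasi-likelihood fit of edgeR took in all 9 libraries, gave each genotype its own mean and used no block, which left 6 residual degrees of freedom at a common biological coefficient of variation of 0.805. P-values were two-sided and adjusted by Benjamini-Hochberg over 18205 genes. Depth was 31300343 to 60386097 counts. Libraries of one genotype differed by a chi-square per gene of 128 to 533 (1 for pure counting error), so no library was a copy of another of its genotype. Libraries of different genotypes were not compared in this way. Deviations of same-numbered libraries from their group means correlated at -0.0359 to 0.0829, so numbers were not taken as pairs.

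Alternatives were DESeq2's size factors and upper-quartile factors in edgeR, other filters, a replicate block, genes detected as a covariate, robust estimation, a fit to the groups compared alone, the Wald test of DESeq2, limma on log2 of the authors' normalized signal plus 1, each library left out in turn and, added after seeing the data, 2 libraries left out together. Named were all 10 genes, other autophagy genes with an unadjusted p under 0.05, the ATG8 substrates, Atg4a and the 5 genes most like Atg12, and outside this rule Tecpr1, Atg101, Atg14 and Ykt6 were named after their values were seen. 1 gene of the LT-HSC list is not reported here and was left out of its sum. The members and lists were chosen with earlier results of these data known. R 4.3.3, edgeR 4.0.16, limma 3.58.1, DESeq2 1.42.0, Python 3.11.15 and matplotlib 3.10.9 were used.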

Additional observations from a re-analysis of the deposited data

How the results depend on the processing

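Each of the 30 log2 fold changes of the 10 genes was recomputed under 20 alternatives, which gave 600 values. Of these, 547 had the same sign and the same side of the threshold, 5 of Atg4d with DESeq2 had the same sign but no p, 45 had the opposite sign, none of them with an adjusted p under 0.05, and 3 passed the threshold where edgeR's quasi-likelihood test had not. The 3 were Atg12 with DESeq2, and they made 1 of the 10 genes called in TKO against WT on all 9 libraries and on the groups compared, and 1 in TKO against δKO on all 9 libraries. On the groups compared, DESeq2 gave Atg12 in TKO against WT an adjusted p of 0.00234, and for δKO against WT it called 1 other autophagy gene, Atg101, at −1.09 (adjusted p = 0.0353). The cause of the difference between the tools was not tested. Atg12 kept its sign in all 60 of its values, and ranged from −0.39 to −0.083 in δKO against WT. The fit with a replicate block could use 8 libraries. Numbers do not pair the libraries here, and the count of called genes was 1, 0 and 1 in the 3 comparisons both without and with the block. With the replicate block Atg10 was −0.34, Atg4b 0.032 and Atg5 −1.68 (adjusted p = 0.759 by edgeR) in TKO against δKO.

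With upper-quartile factors, which moved the median of all genes by 0.139 in TKO against δKO and −0.15 in δKO against WT, Atg10 was −0.095, Atg16l1 −0.028 and Atg4c −0.076 in δKO against WT. With at least 10 counts in every library Atg10 was −0.0086 there. With genes detected as a covariate Atg10 was −0.024, Atg4b −0.30 and Atg4d 1.65 in TKO against WT, Atg16l1 0.32 and Atg4b 0.34 in TKO against δKO, and Atg7 0.20, Atg10 −0.65, Atg3 −0.21, Atg16l1 −0.65 and Atg4b −0.63 in δKO against WT. With limma on the normalized signal Atg4d was 0.40 in TKO against δKO, and Atg16l1 −0.12 and Atg4c −0.0060 in δKO against WT. With WT replicate 3 and δKO replicate 1 both left out Atg16l1 was 0.53 and Atg4c 0.18 in TKO against δKO, and Atg10 −0.11, Atg16l1 −0.68 and Atg4c −0.74 in δKO against WT.

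With single libraries left out, the log2 fold changes that turned sign ranged as follows. In TKO against WT, Atg5 ranged from −0.86 to 0.0080, Atg10 from −0.46 to 0.75, Atg16l1 from −0.38 to 0.012, Atg4b from −0.44 to 0.47 and Atg4c from −0.94 to 0.073, all turned by TKO replicate 2. Atg3 ranged from −0.83 to 0.020, turned by TKO replicate 1, and Atg16l2 from −0.034 to 0.34, turned by WT replicate 1 (−0.019) and TKO replicate 3. In TKO against δKO, Atg7 ranged from −0.78 to 0.020 and Atg10 from −0.57 to 0.79, turned by TKO replicate 2, Atg16l1 from −0.83 to 0.53 and Atg4c from −1.07 to 0.18, turned by δKO replicate 1, and Atg4d from −1.06 to 1.70, turned by δKO replicate 2 (−1.04 without δKO replicate 1). In δKO against WT, Atg10 ranged from −0.46 to 0.46, Atg16l1 from −0.74 to 0.63 and Atg4c from −0.56 to 0.41 (0.35 without δKO replicate 2), turned by δKO replicate 1, with Atg10 also turned by WT replicates 1 (−0.066) and 2 (−0.0078) and Atg4c by WT replicate 3 (−0.041). Atg16l2 ranged from −0.25 to 0.12, turned by WT replicate 3 and by δKO replicate 2 (0.084), and Atg4d from −1.0 to 1.76 (1.73 without δKO replicate 1), turned by δKO replicate 2. Without a turn of sign, Atg5 in TKO against δKO ranged from −1.46 (without TKO replicate 3) to −0.38 (without δKO replicate 1). Atg3 reached −1.23 and Atg4b −0.94 there without TKO replicate 2, and Atg7 in TKO against WT ranged from −1.14 (without TKO replicate 1) to −0.34 (without TKO replicate 2). Depth did not limit Atg12, with at least 284 counts in a library, but Atg4d had as few as 28.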
